A study of Homo sapiens with 13 samples.

Results

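The 10 genes described here encode glycolytic enzymes: HK2, GPI, PFKP, ALDOA, TPI1, GAPDH, PGK1, PGAM1, ENO1 and LDHA. They were chosen by gene name, as the entries of the deposited 3’ READS files that carry 1 of these names, out of 14575 genes with reads. Together they held 293 of the 211765 3’ ends, or isoforms, detected in the series. 3’ READS sequences the 3’ ends of polyadenylated RNA, so a read marks an RNA end and the level of a gene does not scale with transcript length. Copies of the same molecule may be counted more than once. The cells were HEK293 Flp-in TREX, a human embryonic kidney line, with an integrated pcDNA5 plasmid that expressed Rpb1, the largest subunit of RNA polymerase II, in an α-amanitin resistant form. The sample titles name an Avitag on Rpb1 in all libraries, while the source labels read B10 Rpb1. There were 5 libraries of cells with wild-type Rpb1 and 4 of cells with R749H Rpb1, which slows elongation. All cells received doxycycline at 2 µg/ml to induce Rpb1 (for 24 hr before α-amanitin by the sample labels, and for a shorter time before it by the study's methods, which continued doxycycline during α-amanitin) and then α-amanitin at 2.5 µg/ml for 42 hr to block the endogenous polymerase. Transcription in both groups, wild-type included, thus depended on a transgene.

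Glycolysis converts glucose to pyruvate in the cytosol and yields ATP and NADH. Its early enzymes phosphorylate and split the sugar, and its later enzymes recover ATP and pass the product to lactate dehydrogenase or the mitochondria. Most of these enzymes are abundant in cultured cells, and several exist as isoenzymes encoded by separate genes. Their mRNAs end where the nascent RNA is cut and polyadenylated, usually a short distance downstream of the hexamer AATAAA or a variant of it.

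The libraries held 2479851 to 10135014 reads within 5 kb downstream of a stop codon in wild-type cells and 3863468 to 6475987 in R749H cells. R749H replicate 3 stood apart, since only 6.60% of its 41033 isoforms were seen in 1 read, where the other libraries had 30.05% to 36.2% of theirs at 1 read. Of the marker genes of HEK293 cells, VIM, KRT8, KRT18 and INA were detected at a mean of at least 34.4 normalized RPM (reads per M reads within 5 kb, with TMM factors) in both groups, whereas PAX2, LHX1 and NEFM had 85, 9 and 2 reads in all libraries together and NEFL was listed in none. The summed level of 12 marker genes of other cell types was 0 to 2.12 normalized RPM in wild-type and 1.38 to 5.06 in R749H libraries. Reads at the 3’ end of POLR2A, the gene for Rpb1, were more abundant in R749H cells (log2 fold change 2.12, SE 0.23), and whether they come from the transgene or the endogenous gene cannot be told apart. In the comparison of expression, limma with Benjamini-Hochberg adjustment called 1038 genes higher and 1227 lower in R749H cells out of 9494 tested, so 45.8% of the calls were higher. With the authors' scaling alone, without TMM factors, the split was 431 higher and 2627 lower (14.1% higher), and the median log2 fold change of all genes moved from -0.07 to -0.41.

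The main 3’ ends are shown first because they held the most reads of each gene, although the expression values are sums over all ends of a gene. Each line gives the last 30 nt of the RNA as DNA letters, read from GRCh37 on the strand of the gene, with the hexamer AATAAA or ATTAAA in capitals. The main isoform is printed for the 9 genes that could be tested, and the distal isoform of GPI is added because that gene used 2 distant sites.
GPI +291, chr19:34891203-34891232, plus strand: ccatgtagaaaAATAAAgatgccacggagg
GPI +2377, chr19:34893289-34893318, plus strand: gcttcAATAAAtctgtgcttttgttccttc
PFKP +221, chr10:3178963-3178992, plus strand: agaattaATTAAAcatttgcctatgactcc
ALDOA +201, chr16:30081705-30081734, plus strand: cactgccaAATAAAcagctatttaaggggg
TPI1 +445, chr12:6979963-6979992, plus strand: cccatgtgagggAATAAAcctggcactagg
GAPDH +200, chr12:6647507-6647536, plus strand: taccatcAATAAAgtaccctgtgctcaacc
PGK1 +442, chrX:77381740-77381769, plus strand: taaacAATAAAagtgtccattgaaaccgtg
PGAM1 +589, chr10:99192841-99192870, plus strand: tttATTAAAaaagtatagtatatataatac
ENO1 +356, chr1:8921063-8921092, minus strand: tcaaAATAAAaagcctcagtgacccatgag
LDHA +470, chr11:18429364-18429393, plus strand: actaaaacccccAATAAAccttgaacagtg

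The number after each name is the distance of the last base from the end of the stop codon in nt, as the files give it. All of these ends lay in an annotated UTR of their own gene. The hexamer began 18 to 27 nt before the end in each, and it was ATTAAA in PFKP and PGAM1 and AATAAA in the others. Among the main isoforms of 9495 genes, 65.1% held AATAAA in the last 30 nt, 16.3% held ATTAAA without AATAAA and 81.4% held at least 1 of them, searched on the strand of the gene only. Most of the ends coincided with an annotated transcript end to within a few nt, but the main end of PGAM1 lay 331 nt and that of TPI1 111 nt from the nearest one. From 0 to 4 genomic As follow directly after the printed ends, and an end cannot be placed within such a run because As were trimmed from the reads. The last 30 nt occurred once in the genome for each end except LDHA +470, where they occurred 4 times, although the last 77 nt of LDHA occurred once. The ends of GPI, PFKP and ALDOA are also covered by another annotated gene on the same strand (ENSG00000266953, ENSG00000278419 and ENSG00000285043), and reads of both genes cannot be told apart there. The GAPDH end is overlapped by an antisense transcript (ENSG00000269968), whose reads map to the other strand and do not enter these values.

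In wild-type cells the levels of the 10 genes spanned about 4 orders of magnitude in normalized RPM. ENO1, which makes phosphoenolpyruvate, had the highest mean, 5453 ± 1492 (SD, n = 5), and GAPDH, which oxidizes glyceraldehyde-3-phosphate, followed at 4287 ± 739 (SD, n = 5). ENO1 exceeded GAPDH in 5 of 5 wild-type libraries, yet the ranges of both genes over the libraries overlapped. ALDOA, which splits fructose-1,6-bisphosphate, came next at 1363 ± 321, below every GAPDH value. PFKP at 467 ± 103, TPI1 at 310.0 ± 133 and GPI at 264 ± 35.5 formed a middle group, in which neighbors in this order overlapped. LDHA at 175 ± 28.6, PGK1 at 24.8 ± 8.12, PGAM1 at 8.50 ± 2.31 and HK2 at 0.429 ± 0.321 completed the order without overlap between neighbors (SD, n = 5 for each). This is an order of counted reads. Whether mapping or the authors' removal of reads without non-templated As differed between genes was not tested. The rank of ENO1 and GAPDH was 31 and 28 among the 14575 genes by mean level over all libraries, and that of HK2 was 11598. The genes together took 1.15% to 1.55% of the reads in wild-type and 1.16% to 1.26% in R749H libraries. Since poly(A) RNA was sequenced from a population of cells, more RNA per cell and a larger share of expressing cells cannot be told apart.

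**Figure D1:**
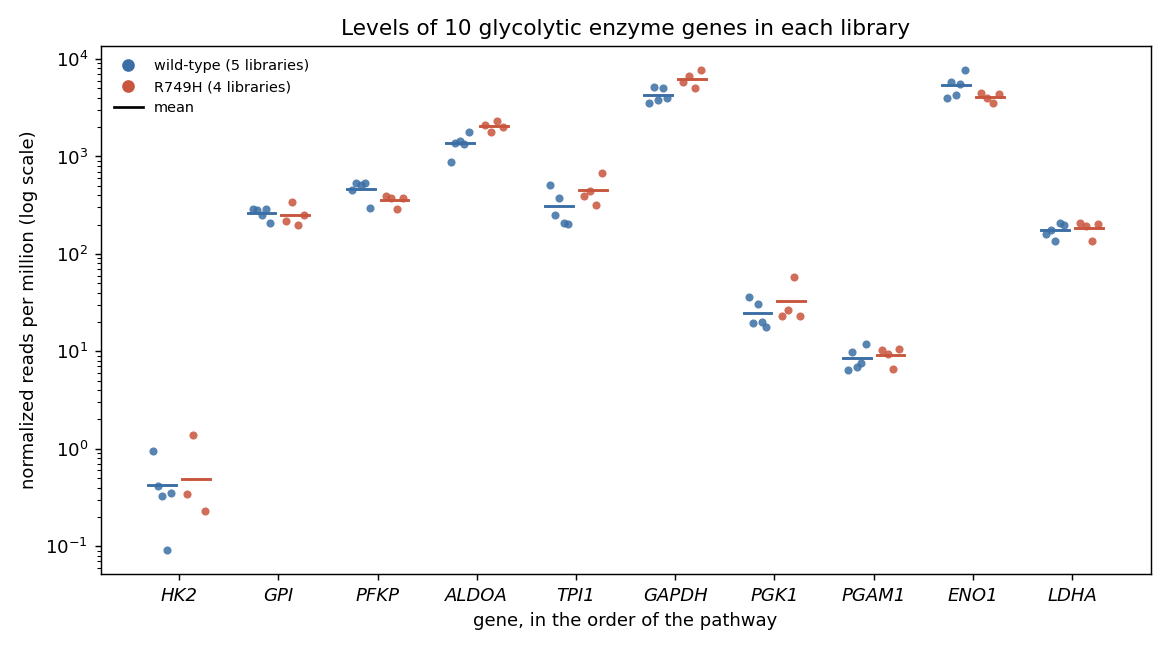
Normalized RPM on a log scale for the 10 genes in pathway order, with 1 point per library (blue, 5 wild-type; red, 4 R749H) and a line at the mean of each group. Points of R749H and wild-type libraries overlap in every gene, the 4 R749H points of ALDOA and GAPDH lie near or above the highest wild-type point, and HK2, whose R749H replicate 3 at 0 reads cannot be drawn on this axis, is the lowest gene.

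Of the 9 genes that passed the filter on low counts, 2 rose in R749H cells (ALDOA and GAPDH) and none fell (limma, adjusted p under 0.05). Across all genes tested, 10.9% were called higher and 12.9% lower, and 23.9% either way. The median log2 fold change of the 9 genes was 0.14, against -0.07 for all genes tested. R749H and wild-type libraries overlapped in each of the 9 genes, whereas 9.72% of all genes tested had every R749H library above every wild-type library and 10.1% had every one below.

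HK2, a hexokinase that phosphorylates glucose in the first step, was nearly undetected. Wild-type replicates 1 to 5 had 3, 2, 2, 1 and 2 reads, and R749H replicates 1 to 4 had 2, 5, 0 and 1. The 0 in R749H replicate 3 allows up to 3 reads, or 0.777 RPM before TMM factors, counting error only. With 18 reads in all, HK2 was not tested, and no difference was detectable at this depth. The first step was instead represented by HK1, named here after its values were seen, at a mean of 296 normalized RPM in wild-type and 298 in R749H cells (log2 fold change 0.02, 95% interval -0.38 to 0.42).

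GPI, which isomerizes glucose-6-phosphate to fructose-6-phosphate, had 291, 279, 248, 292 and 209 normalized RPM in wild-type replicates 1 to 5. The R749H replicates 1 to 4 had 218, 340, 198 and 250. The R749H values lay on both sides of the wild-type range, with replicate 2 above it and replicate 3 below it. The log2 fold change was -0.09 (SE 0.18, 95% interval -0.47 to 0.30, limma adjusted p = 0.759), and 0.04 without R749H replicate 3 (adjusted p = 0.902).

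PFKP, the platelet-type phosphofructokinase that commits the sugar to glycolysis, had 455, 539, 511, 537 and 294 normalized RPM in wild-type replicates 1 to 5. In R749H replicates 1 to 4 the values were 390.2, 377, 288 and 379. In 4 of the 5 wild-type libraries PFKP was above every R749H library, and wild-type replicate 5 was the exception. The log2 fold change was -0.36 (SE 0.19, 95% interval -0.76 to 0.05) and did not pass the threshold (limma, adjusted p = 0.184). Without wild-type replicate 5, it was -0.52 (adjusted p = 0.0239). Without R749H replicate 3, which had the lowest PFKP level of all libraries, it was -0.23 (adjusted p = 0.443).

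ALDOA had 878, 1376, 1453, 1338 and 1772 normalized RPM in wild-type replicates 1 to 5. The same gene in R749H replicates 1 to 4 had 2115, 1772, 2290.2 and 1983. Thus 3 of 4 R749H libraries were above every wild-type library, and R749H replicate 2 matched the highest one. ALDOA rose with a log2 fold change of 0.61 (SE 0.19, 95% interval 0.21 to 1.01, limma adjusted p = 0.0281), or 1.53-fold. The adjusted p was 0.0530 without wild-type replicate 2, 0.0567 without wild-type replicate 4 and 0.0521 without R749H replicate 3, with log2 fold changes of 0.62, 0.61 and 0.58, and it was 0.0894 with no filter on low counts.

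TPI1, which interconverts the triose phosphates, varied most between wild-type libraries among the genes tested. Wild-type replicates 1 to 5 had 511, 248, 379, 209 and 202 normalized RPM, a 2.53-fold range. For R749H replicates 1 to 4 the levels were 390, 442, 315 and 670. The groups overlapped, although R749H replicate 4 was the highest of all libraries. The log2 fold change of 0.59 (SE 0.27, 95% interval 0.02 to 1.16) was close to that of ALDOA but did not pass the threshold (limma, adjusted p = 0.118), and without wild-type replicate 1 it was 0.80 (adjusted p = 0.0241).

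GAPDH had 3510, 5149, 3801, 4999 and 3976 normalized RPM in wild-type replicates 1 to 5. R749H replicates 1 to 4 had 5757, 6707, 5070 and 7630. Again 3 of 4 R749H libraries were above every wild-type library, and R749H replicate 3 lay within the wild-type range. GAPDH rose with a log2 fold change of 0.55 (SE 0.18, 95% interval 0.17 to 0.94, limma adjusted p = 0.0369), or 1.47-fold. Adjusted p was 0.0792 without wild-type replicate 3, 0.0501 without R749H replicate 1, 0.102 without R749H replicate 2 and 0.102 without R749H replicate 4, with log2 fold changes of 0.51, 0.60, 0.54 and 0.47. With no filter on low counts it was 0.202.

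PGK1, which makes the first ATP of the pathway, had 36.1, 19.4, 30.7, 20.2 and 17.7 normalized RPM in wild-type replicates 1 to 5. Levels in R749H replicates 1 to 4 were 23.1, 26.8, 58.0 and 23.3. R749H replicate 3 was the highest of all libraries, and the other 3 lay within the wild-type range. The log2 fold change was 0.34 (SE 0.29, 95% interval -0.27 to 0.95, limma adjusted p = 0.409), and without that library it was 0.06 (adjusted p = 0.894).

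PGAM1, which moves the phosphate group of phosphoglycerate, rested on 425 reads in all. Wild-type replicates 1 to 5 had 6.40, 9.81, 6.85, 7.56 and 11.9 normalized RPM, and R749H replicates 1 to 4 had 10.4, 9.31, 6.66 and 10.6. Every R749H value lay within the wild-type range, and the log2 fold change was 0.14 (SE 0.27, 95% interval -0.43 to 0.70, limma adjusted p = 0.747). It was 0.31 without R749H replicate 3 (adjusted p = 0.435) and 0.04 without wild-type replicate 1 (adjusted p = 0.922).

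ENO1 had 3956, 5807, 4281, 5495 and 7725 normalized RPM in wild-type replicates 1 to 5. R749H replicates 1 to 4 had 4525, 4000.2, 3555 and 4358. The R749H values clustered at the lower end, with replicate 3 below every wild-type library and the rest within the wild-type range, which was 1.95-fold wide. The log2 fold change of -0.37 (SE 0.20, 95% interval -0.79 to 0.04) did not pass the threshold (limma, adjusted p = 0.180). It was -0.24 without wild-type replicate 5, the library with the most ENO1 (adjusted p = 0.328), and -0.48 without wild-type replicate 1 (adjusted p = 0.0590). In R749H cells GAPDH had the higher mean (6291 against 4110), the reverse of the order in wild-type cells.

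LDHA, which reduces pyruvate to lactate, had 159, 177, 135, 205 and 197 normalized RPM in wild-type replicates 1 to 5. Its R749H replicates 1 to 4 had 209.9, 194, 137 and 202. Both groups covered nearly the same range, and the log2 fold change was 0.08 (SE 0.18, 95% interval -0.30 to 0.47, limma adjusted p = 0.774). Without wild-type replicate 3 it was -0.01 (adjusted p = 0.974).

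The scaling affected which of these genes passed the threshold. With the authors' scaling alone, ALDOA had a log2 fold change of 0.27 (limma, adjusted p = 0.234) and GAPDH of 0.21 (adjusted p = 0.270), whereas PFKP at -0.70 (adjusted p = 0.00636) and ENO1 at -0.72 (adjusted p = 0.00363) were called lower. PGAM1 and LDHA changed sign under this scaling, to -0.20 and -0.26. A change of scaling moves every gene by nearly the same amount. Differences from the median of all genes therefore stay nearly equal by construction and do not test the scaling. For ALDOA the difference was 0.68 with TMM factors and 0.67 with the authors' scaling. It was 0.62 for GAPDH, 0.66 for TPI1 and -0.31 for ENO1 with each.

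**Figure D2:**
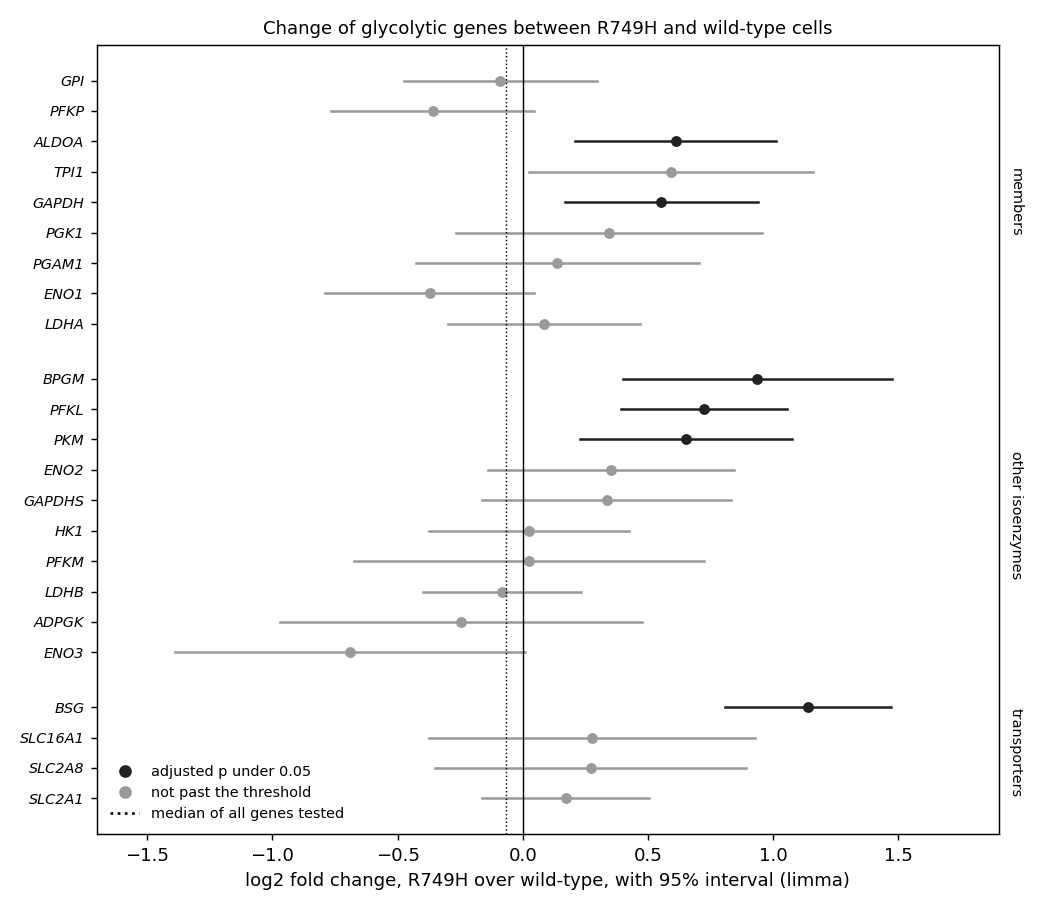
Log2 fold change of R749H over wild-type cells with its 95% interval (limma) for 9 glycolytic enzyme genes in pathway order, 10 other isoenzymes and 4 transporter genes, in black where the adjusted p was under 0.05. The dotted line is the median of all genes tested (-0.07), and among the 9 enzymes the intervals of ALDOA, TPI1 and GAPDH lie above 0 while the black points are ALDOA and GAPDH.

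The other isoenzymes of the same steps, and pyruvate kinase, formed a list of 22 genes, of which 10 could be tested. Over all genes tested, 10.9% were called higher and 12.9% lower, with a median log2 fold change of -0.07. Of these 10 isoenzyme genes, 3 rose and none fell, with a median log2 fold change of 0.18. They were PFKL, the liver-type phosphofructokinase (0.72, SE 0.16, adjusted p = 0.00396), PKM, the muscle-type pyruvate kinase that acts between enolase and lactate dehydrogenase (0.65, SE 0.20, adjusted p = 0.0264), and BPGM, which makes 2,3-bisphosphoglycerate (0.94, SE 0.25, adjusted p = 0.0146), all by limma. PFKL had 158 to 226 normalized RPM in wild-type and 295 to 349 in R749H libraries, without overlap, in the same step in which PFKP did not pass. PKM ranged from 1013 to 1642 in wild-type and from 1569 to 2575 in R749H libraries, with overlap. LDHB, the partner subunit of LDHA and named after its values were seen, had more reads than LDHA, whose end sequence is repeated in the genome as given above, with a mean of 946 in wild-type and 894 in R749H cells (log2 fold change -0.08, 95% interval -0.40 to 0.23). Of 15 genes for glucose and lactate transport, 4 could be tested and 1 rose. This was BSG, the basigin chaperone of monocarboxylate transporters, at 887 to 1188 in wild-type and 1981 to 2638 in R749H libraries (log2 fold change 1.14, SE 0.16, limma adjusted p = 0.000148). The main glucose transporter gene of cultured cells, SLC2A1, also named after its values were seen, had a log2 fold change of 0.17 (95% interval -0.16 to 0.51, adjusted p = 0.456).

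Neighboring genes did not share the changes of ALDOA and GAPDH in their medians. Within 5 Mb of ALDOA, 72 tested genes had a median log2 fold change of -0.41, with 4 called higher and 20 lower. Around GAPDH, 54 neighbors had a median of -0.04, and around TPI1, on the same part of chromosome 12 and with shared neighbors, 51 had a median of -0.05. ENO1 lay among 53 genes with a median of -0.57, of which 23 were called lower and 1 higher, so its own log2 fold change of -0.37 was less negative than that of its surroundings. PFKP, by contrast, lay among 18 genes with a median of 0.19. These medians are descriptions and were not tested.

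The study compared the distribution of 3’ ends along 3’ UTRs between slow and wild-type polymerase. Most of these genes ended RNA at a few adjacent nucleotides. The main isoform held 92.8% of all LDHA reads, 86.0% for GAPDH, 82.3% for ALDOA, 79.5% for TPI1 and 73.0% for PFKP. For PGAM1 it held 68.0%, for ENO1 62.2%, for PGK1 62.0% and for GPI 46.4%, against a median of 56.9% over the main isoforms of 9494 genes. Its distance from the stop codon was 200 to 589 nt in the 9 genes, below the median of 715 nt over those genes. In HK2, 10 of 18 reads ended at +2415.

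**Figure D3:**
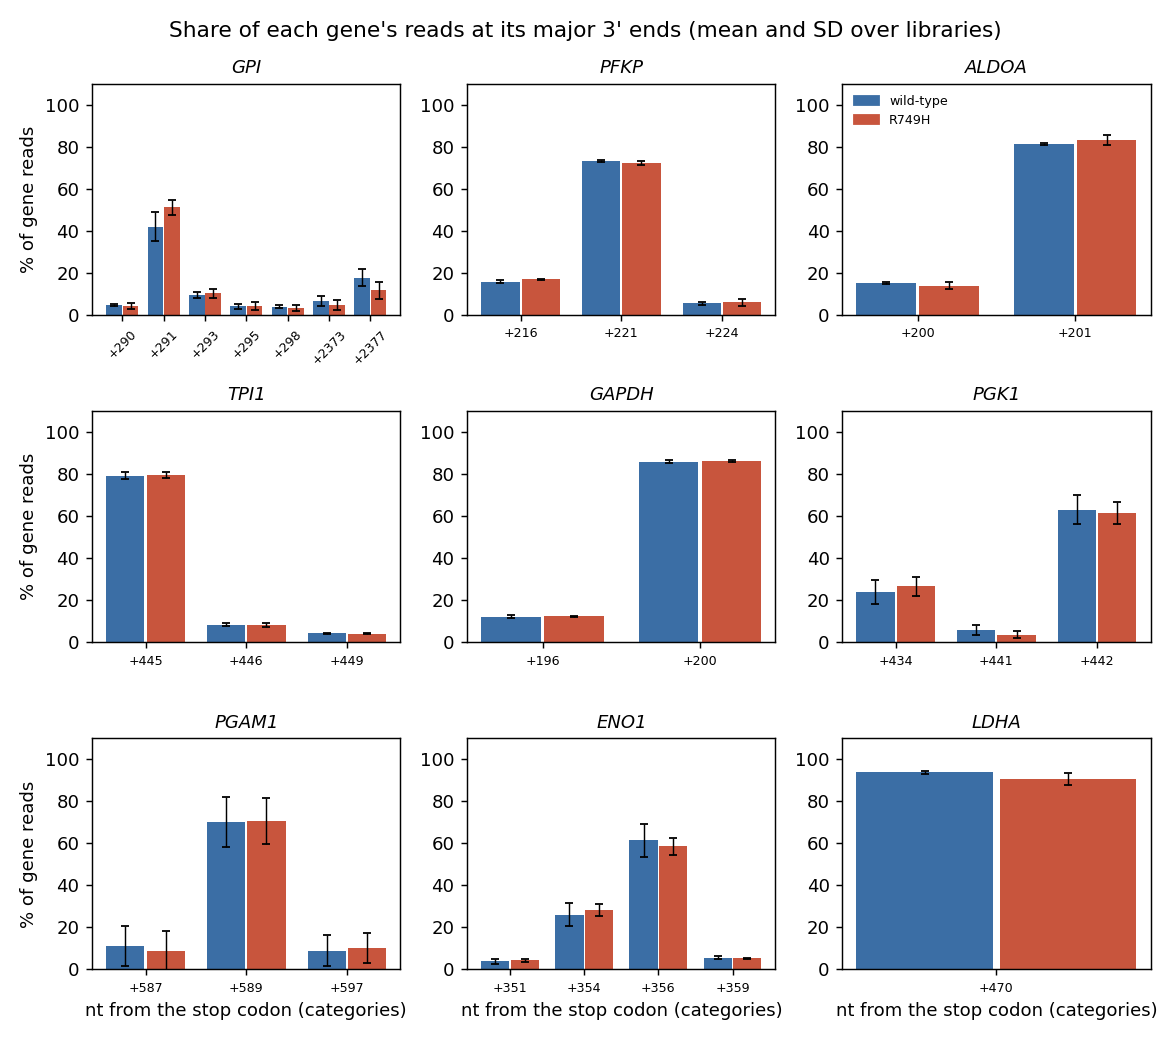
Mean share of each gene's reads at its major 3’ ends (above 5% of the maximal isoform in both cell lines) with SD over 5 wild-type (blue) and 4 R749H (red) libraries, in percent, by distance from the stop codon in nt (positions drawn as categories, not to scale). In 8 of the 9 genes all major ends fall within one short stretch, and GPI alone has a second group near +2377 (24.4% in wild-type and 16.2% in R749H cells, a difference that did not pass the threshold).

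For each gene, the median 3’ end position over all libraries was taken, and the share of reads beyond it was compared between the groups as log2 odds. None of the 9 genes passed the threshold (limma, adjusted p under 0.05), and 0.0387% of 7757 genes tested did. At an unadjusted p under 0.05, GPI, GAPDH and LDHA passed, as did 9.36% of all genes tested. GPI and GAPDH had lower downstream shares in R749H cells, a direction with unadjusted p under 0.05 in 5.83% of all genes tested. The other 6 genes had log2 odds changes between -0.06 and 0.27.

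In GPI the median position was +291, and the downstream share was 64.4%, 47.3%, 51.2%, 44.4% and 49.5% in wild-type replicates 1 to 5. In R749H replicates 1 to 4 it was 47.7%, 40.3%, 43.1% and 36.8%. Wild-type replicate 1 was the highest, and the groups overlapped through R749H replicate 1. The mean was 51.4% ± 7.72 (SD, n = 5) in wild-type and 42.0% ± 4.58 (SD, n = 4) in R749H cells, a log2 odds change of -0.55 (SE 0.24, 95% interval -1.08 to -0.03, limma adjusted p = 0.510). Without wild-type replicate 1 the change was -0.36 (adjusted p = 0.606).

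GPI had major ends in 2 groups that were 2075 nt apart, one at +290 to +298 and one at +2373 to +2377, whose sequences around AATAAA are printed above. The distal group held 35.5%, 21.8%, 21.9%, 19.1% and 23.6% of GPI reads in wild-type replicates 1 to 5. In R749H replicates 1 to 4 it held 20.3%, 10.6%, 22.4% and 11.4%. R749H replicates 2 and 4 were below every wild-type library, and the other 2 were within the wild-type range. The mean was 24.4% ± 6.40 in wild-type and 16.2% ± 6.06 in R749H cells, with a log2 odds change of -0.78 (SE 0.31, 95% interval -1.45 to -0.12) that did not pass the threshold when ends up to 4 nt apart were joined (limma, adjusted p = 0.289). The proximal group held 63.6% ± 8.75 in wild-type and 72.5% ± 5.40 in R749H cells (log2 odds change 0.59, adjusted p = 0.374). As single isoforms, +291 had a log2 odds change of 0.55 (adjusted p = 0.441) and +2377 of -0.75 (adjusted p = 0.421).

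GAPDH showed a small difference that separated the groups. The share downstream of +200 was 1.16%, 1.37%, 1.24%, 1.33% and 1.51% in wild-type replicates 1 to 5. It was 1.09%, 1.09%, 0.982% and 1.10% in R749H replicates 1 to 4, each below every wild-type library. Such a separation in this direction was found in 2.57% of all genes tested. The log2 odds change was -0.31 (SE 0.084, 95% interval -0.50 to -0.12), with an unadjusted p of 0.00421 and an adjusted p of 0.276 (limma). It concerned about 1 in 100 GAPDH reads. When the gene was divided at the midpoint of its major ends instead, the change was -0.01 (limma, adjusted p = 0.980). That division falls between +196 and +200 and counts the reads at +200 as downstream. It therefore does not test the reads beyond +200.

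LDHA differed in the other direction. Downstream of +470 lay 3.41%, 3.19%, 2.17%, 3.77% and 4.34% of its reads in wild-type replicates 1 to 5. In R749H replicates 1 to 4 the share was 3.89%, 6.36%, 7.20% and 4.33%, and R749H replicates 2 and 3 exceeded every wild-type library. The log2 odds change was 0.70 (SE 0.25, 95% interval 0.14 to 1.26) and did not pass the threshold (limma, adjusted p = 0.418). The mean downstream share was 3.38% in wild-type and 5.45% in R749H cells. The main isoform held 93.8% ± 0.728 (SD, n = 5) in wild-type and 90.6% ± 2.86 (SD, n = 4) in R749H cells. Ends upstream of +470 thus also held a larger mean share in R749H cells. That share was largest in R749H replicate 3, the library with few single-read isoforms, where +470 held 86.8% of LDHA reads. In R749H replicates 1, 2 and 4 the main isoform held 93.4%, 90.3% and 92.0%.

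**Figure D4:**
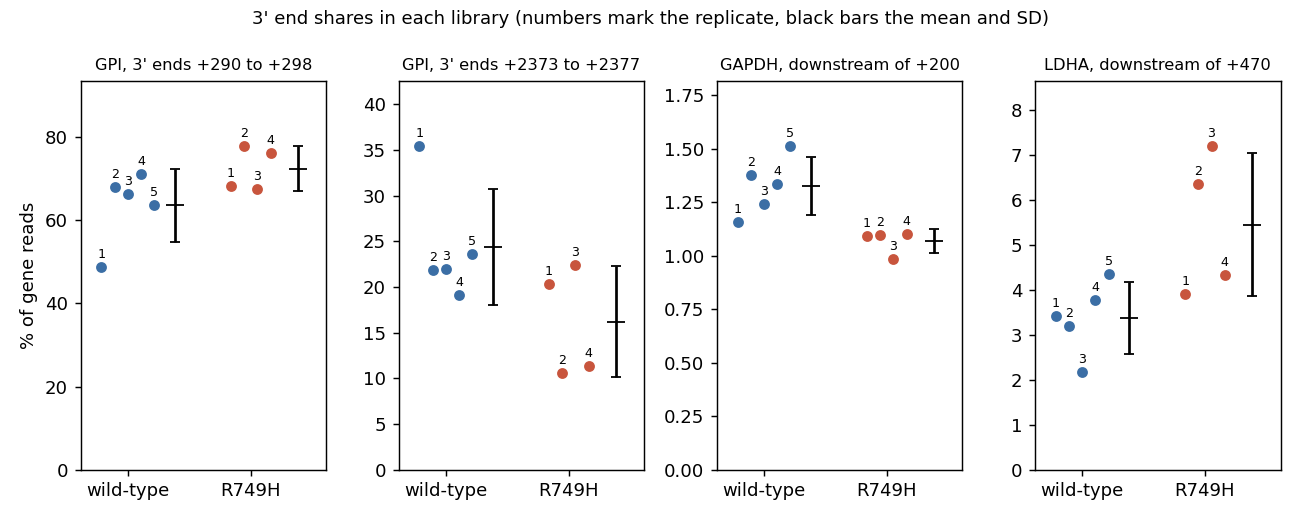
Share of reads, in percent of the gene's reads, at the proximal and distal 3’ ends of GPI, downstream of +200 in GAPDH and downstream of +470 in LDHA, with 1 point per library marked by its replicate number (blue, wild-type; red, R749H) and the mean and SD in black. The 4 R749H points of GAPDH lie below all 5 wild-type points, and the points of the other 3 panels overlap.

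Within groups of adjacent ends, 23 isoforms of the 10 genes could be tested for their share of the gene, and none passed the threshold, as against 0.127% of 9459 isoforms tested (limma, adjusted p under 0.05). At an unadjusted p under 0.05, GPI +291 and GPI +2377 passed, where 9.27% of all isoforms did. ENO1 had 4 major ends within 8 nt, and its wild-type libraries differed more from each other than the groups did. The share of ENO1 +356 was 51.9%, 62.7%, 57.2%, 62.1% and 73.1% in wild-type replicates 1 to 5 and 61.9%, 54.7%, 62.4% and 55.6% in R749H replicates 1 to 4. In mean share from upstream to downstream, ENO1 changed from 3.85% to 4.31% at +351, from 26.0% to 28.2% at +354, from 61.4% to 58.6% at +356 and from 5.57% to 5.34% at +359. The upstream ends of ENO1 were thus higher and the downstream ends lower in the R749H means, each by less than the SD between wild-type libraries, and the log2 odds changes were between -0.18 and 0.21 (limma, adjusted p from 0.768 to 0.854).

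Within the proximal group of GPI, +291 held a mean of 41.9% in wild-type and 51.1% in R749H cells. The share went from 4.56% to 4.13% at +290, from 9.43% to 10.2% at +293 and from 3.95% to 3.98% at +295. At +298 it went from 3.82% to 3.03%. None of these ends passed the threshold (limma, adjusted p from 0.441 to 0.937). The choice between adjacent ends differed little in GAPDH, ALDOA, TPI1 and PFKP. GAPDH +196 held 12.1% ± 0.915 (SD, n = 5) of GAPDH reads in wild-type and 12.2% ± 0.310 (SD, n = 4) in R749H cells, with +200 at 85.9% ± 0.769 and 86.2% ± 0.425. For ALDOA +201 the share was 81.4% ± 0.414 in wild-type and 83.1% ± 2.22 in R749H cells, with R749H replicate 3 highest at 86.2%. The TPI1 end at +445 held 79.2% ± 1.71 and 79.3% ± 1.44, a log2 odds change of 0.01 with a 95% interval of -0.23 to 0.26. At PFKP +221 it was 73.2% ± 0.597 and 72.1% ± 0.935. In PGK1, with 1267 reads in all, the shares were less precise, at 63.0% ± 7.01 and 61.5% ± 5.20 for +442 and 23.9% ± 5.75 and 26.6% ± 4.48 for +434. PGK1 +441 held 5.94% ± 2.40 in wild-type and 3.54% ± 1.72 in R749H cells, on too few reads for a test. In PGAM1 only +589 had enough reads, and genes with a single such isoform were not tested for shares. PGAM1 +589 held 70.1% ± 11.96 in wild-type and 70.6% ± 10.9 in R749H cells.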

How the data were processed

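3’ READS libraries of 5 wild-type and 4 R749H replicates were analysed, and the 4 eNETseq libraries of the series are not analysed here. The authors trimmed the reads to a length of 77 nt or less and mapped them to hg19 (the GRCh37 build) using bowtie, where the leading 30 nt had to match exactly (the submitters' processing notes list Bowtie2 2.3.2). Reads without non-templated As were discarded by the authors, and a 3’ end was given to the CCDS stop codon that lay at most 5 kb before it. The deposited signal values are read numbers per isoform after the authors set each replicate to a total of 7 M poly(A) reads. Division by the value of 1 read gave whole reads for at least 99.9989% of values in each library (tolerance 0.0055), and the summed replicates equalled the authors' pooled values at all 176030 wild-type and 134734 R749H isoforms. No 3’ end was assigned to 2 genes, so the alternative of assigning each to 1 gene changes nothing and was not run.

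Reads were summed per gene, filtered with filterByExpr, converted to log2 reads per M with TMM factors (prior count 0.5) and compared with limma 3.58.1 (trend) in R 4.3.3. On the recovered reads, edgeR 4.0.16 called 2358 and DESeq2 1.42.0 called 2653 genes, where limma called 2265, and both called ALDOA and GAPDH. Shares, written as log2 odds, were compared with limma where libraries averaged 20 reads or more: reads beyond the median 3’ end of the gene, and reads at each isoform (above 5% of the maximal isoform in both cell lines). Isoforms were tested in genes with more than a single such isoform. Adjusted p is by Benjamini-Hochberg over all genes or isoforms tested, and the threshold was 0.05. For the 3’ READS libraries, the sources used here name random bases that were trimmed but no count of molecules by them, and errors from read numbers cover counting only. No pair of replicates agreed within sampling noise (chi-square per degree of freedom 3.76 to 33.8).

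Sequences and annotation are from GRCh37 and GENCODE. The members and gene lists were chosen with earlier results of these data known. All 10 genes are named with every library; of each other list, the genes past the threshold (at most the 4 with the largest change), and otherwise the 2 with the most reads. The lists were other isoenzymes, transporters, regulators of flux, pyruvate entry, pentose phosphate pathway, gluconeogenesis and glycogen, hypoxia-induced genes, HEK293 markers and markers of other cell types.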

Additional observations from a re-analysis of the deposited data

Results flagged for a closer look

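In 7 of 86 groups of 4 or 5 libraries (8.14%), 1 library lay farther from the others than Dixon's 95% critical value allows, and chance alone gives this in about 1 in 20 groups. R749H replicate 3 was such a library in 3 cases. It had 288 normalized RPM for PFKP (377 to 390.2 in the other R749H libraries), 58.0 for PGK1 (23.1 to 26.8) and 0.982% of GAPDH reads downstream of +200 (1.09% to 1.10%). It is also the library with few single-read isoforms, and the part of this in the values was not tested. Wild-type replicate 5 had 4.72% of ENO1 reads downstream of +356 (5.86% to 6.30% in the other wild-type libraries) and 4.57% at +359 (5.68% to 6.09%), 2 values that share most of their reads. Wild-type replicate 1 had 10.9% of GPI reads at +2373 (5.24% to 6.43%). R749H replicate 1 had 73.5% of PFKP reads at +221 (71.4% to 71.8%).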

How the results depend on the processing

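The fit with the replicate number as a block used replicates 1 to 4 and so left out wild-type replicate 5. It called 2 of the 9 genes higher (ALDOA and GAPDH) and 1 lower, PFKP at -0.52 (limma, adjusted p = 0.0404), which without that library and without a block was also -0.52 (adjusted p = 0.0239). Libraries with the same number did not deviate together (r = -0.07 to 0.05), which cannot show whether they were prepared together. The authors' scaling alone called 431 genes higher and 2627 lower, 0 and 2 of them among the 9, and reversed PGAM1 (-0.20) and LDHA (-0.26). With no filter on low counts, 0 of the 9 were called higher by limma, though at nearly the same fold changes. RLE factors, prior counts of 0.1 and 2, edgeR, DESeq2 and thinned libraries kept the calls of ALDOA and GAPDH. Leaving out each library in turn gave 694 to 1196 genes higher and 826 to 1468 lower, with 1 to 3 and 0 to 1 of the 9. It gave -0.22 to 0.041 for GPI and -0.011 to 0.25 for LDHA, the genes whose log2 fold change reversed.

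Genes past the threshold for shifts numbered 6 with 0.1 reads added, 6 with division at the midpoint and 2 to 9 with 1 library left out. For isoform shares there were 5 with a mean of at least 50 reads, 2 with no minimum, 3 in thinned libraries, 28 with joined ends and 3 to 27 with 1 library left out. None of these settings called a shift or isoform of the 10 genes. The log2 odds changes that reversed are given next, none past the threshold. Thinning gave 0.024 for PFKP and -0.051 for PGK1 in shifts, and -0.015 for GAPDH +196 and -0.057 for TPI1 +445 in shares. The block gave 0.0023 for the PFKP shift, and 0.010, -0.040 and -0.026 for the shares of ENO1 +356, GAPDH +196 and TPI1 +445, values that leaving out wild-type replicate 5 without a block gave as well. Division at the midpoint, which counts other reads as downstream than the median does, gave 0.19, -0.019 and -0.21 for the shifts of ALDOA, TPI1 and PGK1. With 1 library left out, shifts were -0.20 to 0.051 for PFKP, -0.092 to 0.027 for ALDOA, -0.065 to 0.076 for TPI1 and -0.12 to 0.53 for PGAM1. Shares were -0.24 to 0.045 for PGK1 +442, -0.032 to 0.073 for TPI1 +445, -0.32 to 0.010 for ENO1 +356 and -0.040 to 0.043 for GAPDH +196. The causes were not tested. Depth limits HK2 and PGAM1 most.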

Other observations

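Pathways that branch from or feed on glycolysis held genes that changed in both directions. By limma, 10.9% of all genes tested were called higher and 12.9% lower. Of 8 tested genes of the pentose phosphate pathway, 2 rose and 2 fell, with a median log2 fold change of -0.03. On the log2 scale, RPIA, the ribose-5-phosphate isomerase, rose by 1.25 (13.3 to 31.3 normalized RPM in wild-type and 31.5 to 56.7 in R749H libraries, adjusted p = 0.00279), and PRPS1 by 0.71 (adjusted p = 0.0360). PRPS2, which like PRPS1 makes phosphoribosyl pyrophosphate, changed by -1.09 (adjusted p = 0.0174), and PGLS, the lactonase of the oxidative branch, by -0.66 (adjusted p = 0.0196). Of 11 tested genes of pyruvate entry into mitochondria, 3 rose and 1 fell, with a median of -0.16. Both subunits of the mitochondrial pyruvate carrier rose, MPC1 by 1.08 (adjusted p = 0.00274) and MPC2 by 0.70 (adjusted p = 0.0200). PDHX, a structural part of pyruvate dehydrogenase, rose by 1.22 (adjusted p = 0.000401). None of the 3, named because they passed the threshold, overlapped between the groups. Every R749H library was above every wild-type library in 9.72% of all genes tested. PDK2, a kinase that inhibits pyruvate dehydrogenase, was lower by log2 fold change -3.26 (SE 0.86, adjusted p = 0.0124). It had 15.2 to 20.2 normalized RPM in wild-type and 0 to 8.87 in R749H libraries. Before scaling these were 63, 77, 107, 183 and 87 reads in wild-type replicates 1 to 5 and 51, 13, 0 and 14 in R749H replicates 1 to 4. The 0 was in R749H replicate 3, the library with few single-read isoforms, and its part in the size of the change was not tested.

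Of 11 tested regulators of glycolytic flux, 1 rose and 1 fell, with a median log2 fold change of 0.01 (limma). C12orf5, also called TIGAR, a fructose-2,6-bisphosphatase, rose by 1.35 (adjusted p = 0.0124), and HIF1AN, the asparagine hydroxylase that limits HIF activity, changed by -1.24 (adjusted p = 0.00136), with 16.7 to 24.6 normalized RPM in wild-type and 6.45 to 10.96 in R749H libraries. Of 14 tested hypoxia-induced genes outside glycolysis, ADM (1.35, adjusted p = 0.000427) and TFRC (0.74, adjusted p = 0.0105) rose and none fell, while the median was -0.35. Of 9 tested genes of gluconeogenesis and glycogen, PYGB, the brain-type glycogen phosphorylase, rose by 0.73 (adjusted p = 0.0207), none fell and the median was -0.10. Among 4 tested HEK293 markers, VIM was lower by log2 fold change -0.66 (adjusted p = 0.0194) and none was higher.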
